A study of Mus musculus with 31 samples.

Results

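Baseline transcript levels in the untreated neonatal forebrain were read from the Cy3 channel of 25 of the 31 arrays of the series, those whose Cy3 sample was a control pool. All controls were NMRI mice at postnatal day 5. Experiment 1, in which MgSO4 was given to other pups, supplied 19 pools taken at 3 h (n = 4), 6 h (n = 7), 12 h (n = 4) and 24 h (n = 4). Experiment 3, in which other pups underwent hypoxia-ischemia, supplied 6 pools taken at 3 h (n = 3) and 12 h (n = 3). The controls of each experiment came from its own litters. The labels give PBS as the treatment of the controls and naive mice as their source, whereas the study's methods call them untreated. Each pool held RNA of 6 hemispheres (3 males and 3 females), cut anterior to the colliculus without the olfactory bulb. A pool hides the spread between animals, and replicates are different pools of a group.

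The level of a gene was the log2 Cy3 signal of its brightest probe minus the 75th percentile of its array, so that a level of 0 is the 75th percentile of the probes and 1 unit is a doubling. Probes bind their targets with different strength, and the rank of a gene is therefore the position of a probe signal and no transcript number. Of 19902 genes with a probe, 10283 (51.67%) were well above background on all 25 arrays and 2577 (12.95%) on none. In such bulk samples, fewer cells of a type and less RNA per cell cannot be told apart.

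The forebrain at this age still forms its circuits. Postmitotic neurons extend axons and build synapses, progenitors of glia divide, and myelin starts to form. The hemispheres hold cortex, striatum and hippocampus, with thalamus and hypothalamus at their base.

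The arrays lay on 9 slides. The 6 h, 12 h and 24 h controls of Experiment 1 shared slides 1 to 4, its 3 h controls were alone on slides 5 and 6, and the controls of Experiment 3 were alone on slides 7 to 9. Differences between 3 h and later times of Experiment 1, and between experiments, therefore cannot be told apart from slide. Between 44.6% and 68.4% of spots were well above background on each array, and none was saturated. The 3 h replicate 3 of Experiment 1 correlated with the other arrays at a mean r of 0.835 against 0.941 to 0.966 for the others, and 11.6% of its genes lay over 2-fold from the other 3 h pools. By this share the 24 h replicate 3 (19.6%) and the 6 h replicate 4 (12.4%) of Experiment 1 lay further from their groups. The 6 h replicates 2 and 6 were nearly identical (r = 0.99809). The spread between them was 0.0926 per array, just above that between spots of a probe (0.080 and 0.0831). Other pairs of a group lay between 0.119 and 0.666. Both were kept as separate samples because the labels list them so. Whether they are separate pools or the same RNA is not known from the labels, and with both averaged as 1 sample 5473 genes were called at 6 h against 3 h, in place of 5513.

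The controls of Experiment 3 differed from those of Experiment 1 in genes of the hypothalamus, a region whose small cell groups each make their own peptide. A gene was called when its adjusted p in limma was under 0.05 and its fold at least 1.5. Of 10 genes of a hypothalamus list, 6 were higher in Experiment 3 both at 3 h and at 12 h and none lower, where 2.14% and 11.5% of all 14985 genes tested were higher. These were Pmch, Oxt, Avp, Hcrt, Agrp and Trh, which all encode neuropeptide precursors. The median difference of the 8 members tested was 2.99 at 3 h and 2.17 at 12 h, against -0.03 and 0.04 over all genes tested. With normexp background correction of the uncorrected signals in place of the processed signals, 4 members were called at each time and none changed direction. The list and its members were chosen with earlier results of these data known. Its count beside the share of all genes is therefore a description and no independent test.

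The promoters of 4 of these peptide genes are shown as the 150 bases before the gene start, from RefSeq on GRCm38.p6. Pmch lies at chr10:88090922-88091071 (+ strand), Hcrt at chr11:100762932-100763081 (- strand), Oxt at chr2:130576019-130576168 (+ strand) and Avp at chr2:130582589-130582738 (- strand). Capitals mark the letters ATAAA, part of a TATA box, where they lie between 40 and 20 bases before the start on the strand of the gene.
Pmch: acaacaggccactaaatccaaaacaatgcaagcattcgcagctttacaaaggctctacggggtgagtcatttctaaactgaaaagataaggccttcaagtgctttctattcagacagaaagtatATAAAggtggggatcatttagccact
Hcrt: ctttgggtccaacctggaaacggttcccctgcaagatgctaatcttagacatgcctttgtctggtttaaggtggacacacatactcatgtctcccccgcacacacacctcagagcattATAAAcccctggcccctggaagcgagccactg
Oxt: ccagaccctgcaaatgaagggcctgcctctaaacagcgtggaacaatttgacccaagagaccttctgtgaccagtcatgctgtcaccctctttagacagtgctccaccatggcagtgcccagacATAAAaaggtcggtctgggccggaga
Avp: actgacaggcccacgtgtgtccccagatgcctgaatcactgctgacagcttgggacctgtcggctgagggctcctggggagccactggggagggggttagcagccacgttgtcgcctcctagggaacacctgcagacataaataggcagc
The letters were found 26 bases before the start of Pmch and Oxt and 32 before that of Hcrt, and not in the window of Avp. Of 32851 RefSeq promoters, 3.78% held them in this window. Windows that ended 15 and 5 bases before the start were also searched after the sequences had been seen. They matched 3 and 4 of the 4 promoters shown, against 4.25% and 5.1% of all promoters.

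Pmch encodes the precursor of melanin-concentrating hormone, made by neurons of the lateral hypothalamus. In Experiment 1 its level at 3 h was -5.38, -5.43, -5.83 and -6.09, and it lay between -5.71 and -4.01 with a median of -5.23 at 6 h. The 12 h pools had -4.75, -5.95, -5.91 and -5.09 and the 24 h pools -4.72, -6.14, -6.46 and -6.47. In Experiment 3 it was 2.02, 1.96 and 2.60 at 3 h and 2.37, 2.55 and 2.50 at 12 h. The experiments did not overlap, and the probe was well above background in 7 of 19 and 6 of 6 pools. The fitted difference was 7.88 ± 0.44 (SE, adjusted p = 1.697e-10) at 3 h and 7.90 ± 0.44 (adjusted p = 1.578e-10) at 12 h, or 4.47 and 2.94 with normexp. In Experiment 1 the probe was well above background in 2 of the 4 pools at 3 h and 1 of the 4 at 12 h, so that the fitted size rests in part on values not well above background.

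Oxt encodes oxytocin and its carrier, made by neurons of the paraventricular and supraoptic nuclei. Its level in Experiment 3 was 0.44, 0.18 and 0.54 at 3 h and 0.67, 0.85 and 0.20 at 12 h. In Experiment 1 the 3 h pools had -3.48, -4.46, -3.12 and -3.64, and the highest of all 19 pools was -2.76. The difference was 4.06 ± 0.54 (adjusted p = 0.0001383) at 3 h and 4.28 ± 0.54 (adjusted p = 6.691e-05) at 12 h. With normexp it was 2.61 at 3 h and 1.32 at 12 h, and the second was no longer called.

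Hcrt, the precursor of the wake-promoting orexins, was at 0.54, 0.68 and 0.77 at 3 h and 1.04, 1.06 and 0.93 at 12 h in Experiment 3. Every pool of Experiment 1 lay below, between -2.82 and -0.96. The differences were 3.02 ± 0.31 and 2.53 ± 0.31. Agrp, the orexigenic peptide of arcuate neurons, differed by 3.10 ± 0.37 and 2.54 ± 0.37 and also showed no overlap, with a highest level of -2.03 in Experiment 1 and a lowest of -1.97 in Experiment 3. Avp encodes vasopressin, made in the same nuclei as oxytocin and in the suprachiasmatic nucleus. It lay between -2.98 and 0.58 in Experiment 1 and between 0.86 and 1.81 in Experiment 3, with differences of 2.97 and 1.81. Trh, the thyrotropin-releasing hormone precursor, differed least among the 6, by 1.06 and 1.00.

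The other members of the list did not share this pattern. Pomc, the precursor of melanocortins and beta-endorphin, varied within Experiment 1 from -6.53 to 4.26 (SD 2.08, n = 19), and its differences of 1.81 ± 1.19 and -0.33 ± 1.19 did not pass the test. Nr5a1, a transcription factor of the ventromedial nucleus, differed by 0.01 and -0.67 and was not called at either time. Sim1 and Otp, factors that specify oxytocin neurons, were well above background in 1 pool and in none.

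**Figure D1:**
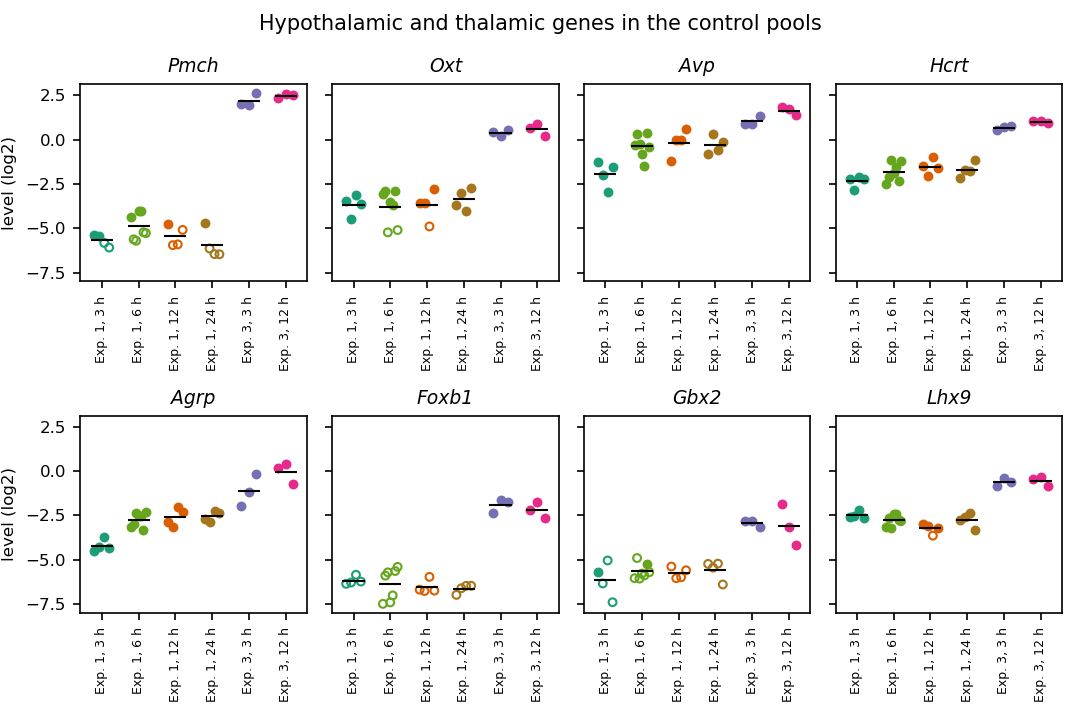
Levels (log2 signal minus the 75th percentile of the array) of 8 genes of hypothalamus and thalamus in each control pool, by experiment and time. Filled points were well above background, open points were not, and bars are group means. All 6 pools of Experiment 3 lie above every pool of Experiment 1 for each of the 8 genes.

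Other genes with large differences between experiments included transcription factors with restricted expression in diencephalon and midbrain. Foxb1, a factor of the mammillary region, was well above background in 6 of 6 pools of Experiment 3, at -2.38, -1.64, -1.75, -2.18, -1.77 and -2.64, and in none of 19 of Experiment 1. It was at least 12.57-fold higher at 3 h (limma adjusted p = 5.184e-06) and at least 5.179-fold at 12 h (adjusted p = 2.283e-06), bounds that set the controls of Experiment 1 at the lowest signal called above background. Foxa1, a factor of midbrain dopamine neurons and of the floor plate, was at least 6.352-fold and 2.059-fold higher and was well above background in 1 of the 19 pools of Experiment 1. 

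Thalamic markers were in part higher in Experiment 3. Of 7 genes, Lhx9 and Gbx2 were higher at 3 h, and Lhx9, Gbx2, Rora and Slc17a6 at 12 h, beside 2.14% and 11.5% of all genes. Lhx9, a factor of thalamic and pretectal neurons, was at -0.84, -0.40 and -0.64 at 3 h and -0.46, -0.32 and -0.83 at 12 h in Experiment 3, and at most at -2.17 in Experiment 1. The differences were 1.86 ± 0.24 and 2.70 ± 0.24. Gbx2, needed for the thalamic projection to cortex, was higher by 3.19 ± 0.47 at 3 h, where 1 of the 4 pools of Experiment 1 was well above background, and at least 2.827-fold higher at 12 h, whereas with normexp its 12 h difference was -0.76. Rora and Slc17a6, the vesicular glutamate transporter of subcortical neurons, differed by 1.36 ± 0.39 and 0.88 ± 0.18 at 12 h. Tcf7l2 and Prkcd, which mark thalamic relay neurons, were not called at either time. With normexp no thalamic gene was called at 3 h and 1 at 12 h.

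Most markers of tissue behind the cut were low, but not all. Of 13 genes, En1, Hoxa5 and Hoxb8 were among those well above background in no pool. Only Pcp2 (-1.91) and Barhl1 (0.30) were in all 25, with En2 in 23 and Fev in 17. The median percentile of the list among all genes was 14.63. Tph2, the serotonin-synthesizing enzyme of raphe neurons, differed between experiments. It was well above background in 15 of 19 pools of Experiment 1, between -5.63 and -3.05, and in none of 6 of Experiment 3, between -7.26 and -5.47. It was at least 1.387-fold lower at 3 h (adjusted p = 0.005661) and at least 2.62-fold lower at 12 h (adjusted p = 6.691e-05) in Experiment 3. Barhl1, a factor of cerebellar granule neurons also found in the mammillary region, was lower in Experiment 3 at 12 h (difference -1.13 ± 0.36). The summed signal of the list (log2, same centring) ranged from 0.0046 to 2.49 in Experiment 1 and from 0.02 to 0.70 in Experiment 3.

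Cortical and striatal genes were higher, lower or not called. Emx1, a dorsal cortical factor, differed by -0.76 ± 0.23 at 3 h, which was not called, and was lower in Experiment 3 at 12 h (difference -0.95 ± 0.23). Among 15 genes of glutamatergic neurons, Tle4 (-0.82) was among those lower at 3 h, and at 12 h Slc17a6 (0.88) and Foxp2 (1.77) were higher and Emx1 lower. Of 12 genes of striatal projection neurons, Isl1, which is also found in hypothalamus, was higher by 1.71 ± 0.37 and 1.70 ± 0.37 at the 2 times. Adora2a (1.49), Penk (0.88) and Rgs9 (0.91) were higher at 12 h only, where 1 of the 4 calls changed direction with normexp, and the difference between times was not called for any gene. How much of each region the pools held was not tested.

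Over all genes, 320 were higher and 393 lower in the controls of Experiment 3 at 3 h (4.76% called), and 1724 were higher and 1448 lower at 12 h (21.2%). The split moved with the processing. At 3 h it was 261 and 214 with centring on the median and 90 and 62 with normexp. At 12 h it was 2007 and 825 with centring on the median, 2089 and 1088 after quantile normalization, and 629 and 247 with normexp. At 3 h the 713 calls fell to 205, 159 and 156 without replicate 1, 2 or 3 of the 3 h group of Experiment 3, and to 383 without the 3 h replicate 3 of Experiment 1. At 12 h the 3172 calls fell to 1907 and 1360 without replicate 1 or 3 of the 12 h group of Experiment 3, and to 1994 without the 12 h replicate 4 of Experiment 1. At 12 h the other genes with the largest difference were Asb4, a hypothalamic ubiquitin ligase subunit, at 3.79 ± 0.56 (well above background in 2 of the 4 pools of Experiment 1), and Tmem14c, a mitochondrial protein of heme synthesis, at -4.03 ± 0.71.

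Choroid plexus genes varied widely between pools. Ttr, the thyroxine carrier made by choroid plexus, was at 4.89, 4.83, 4.71 and 5.04 at 3 h, between 2.38 and 5.43 at 6 h and between 5.14 and 5.88 at 24 h in Experiment 1. Its 12 h pools were at -1.09, 5.35, 5.78 and 5.31, and the 6 pools of Experiment 3 lay between 5.62 and 6.09. The 12 h replicate 1 and the 6 h replicates 3 and 7 (2.65 and 2.38) stood below all others. The same 3 pools were also the lowest for the folate receptor Folr1, the potassium channel subunit Kcne2 and the chloride channel gene Clic6. The 12 h replicate 1 was at -2.28, -5.20 and -4.47 for these genes, against at most 0.26, 0.02 and -2.48 in the other pools of its group. The summed signal of the 10 genes of choroid plexus and ependyma ranged from 2.34 to 6.09 in Experiment 1 and from 5.90 to 6.33 in Experiment 3.

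Between experiments, 1 of these 10 genes was higher in Experiment 3 at 3 h and 5 at 12 h, where 2.14% and 11.5% of all genes were higher. Otx2, a factor of choroid plexus and of midbrain, was higher at both times, by 2.26 ± 0.54 and 2.32 ± 0.54. At 12 h Clic6 (2.16), the water channel Aqp1 (1.91), Folr1 (1.58) and the lysophospholipase Enpp2 (0.62) were also higher. Without the 3 low pools all 5 were still called at 12 h, with Folr1 at 0.98, Clic6 at 1.69, Otx2 at 1.99, Aqp1 at 1.66 and Enpp2 at 0.60. Ttr was then called at 3 h (1.17, limma adjusted p = 0.0021), where it had not been with all pools (1.17 ± 1.06). The pools left out were picked for low levels of these genes, Ttr among them, and none is a 3 h pool. The 3 h difference was thus the same and only the spread of the fit was smaller, so this call is no separate result. With normexp 1 of the 5 calls at 12 h was left.

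**Figure D2:**
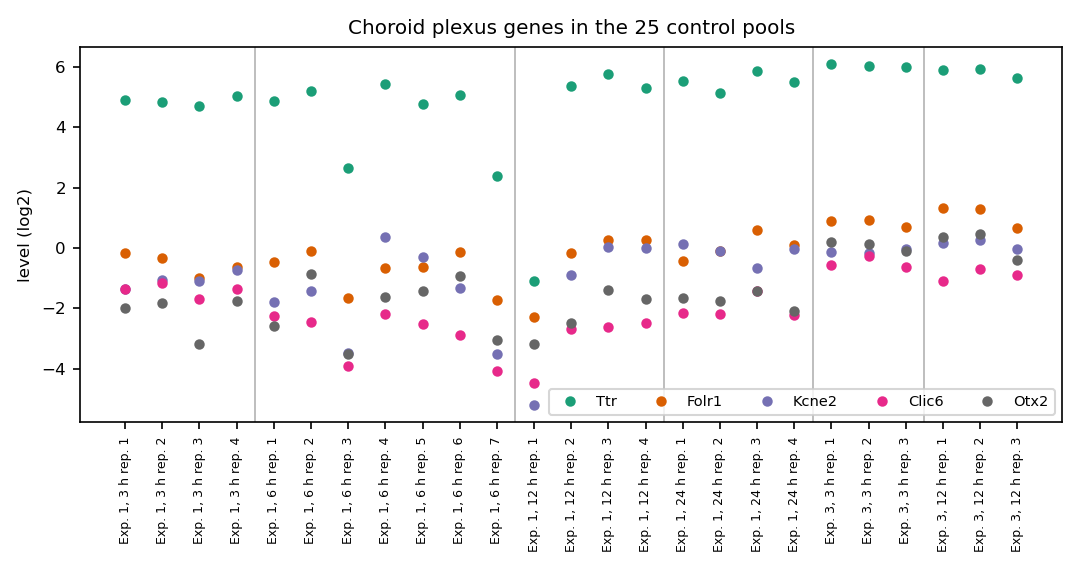
Levels (log2 signal minus the 75th percentile of the array) of Ttr, Folr1, Kcne2, Clic6 and Otx2 in each of the 25 control pools, ordered by experiment, time and replicate. The 12 h replicate 1 of Experiment 1 drops to -1.09 for Ttr and -5.20 for Kcne2, while the 6 pools of Experiment 3 stay between 5.62 and 6.09 for Ttr.

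Turning to the ranking of all genes, mean levels ran from 8.98 to -7.30 with a median of -1.92. The brightest probe was that of Tuba1a, the main tubulin of growing axons, at 8.98 ± 0.71 (SD, n = 25), with pools of Experiment 1 between 7.64 and 10.19. Behind it came Rpl41 at 8.95 ± 0.74 and Ppia at 8.95 ± 0.67, a ribosomal protein and cyclophilin A. The SDs exceed the gaps between these genes, so their order carries nothing. Fau, Rps14, Rpl10a and Rpl9, which all encode ribosomal proteins, and Tpt1, a growth-related tubulin binder, were between 8.47 and 8.67. Exosc2 (8.69), of the RNA exosome, and Zfp628 (8.57), a zinc finger protein, were read from 1 bright probe each. A second probe of Zfp628 was at -1.56, a difference of 10.12 on the log2 scale between probes of 1 gene.

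**Figure D3:**
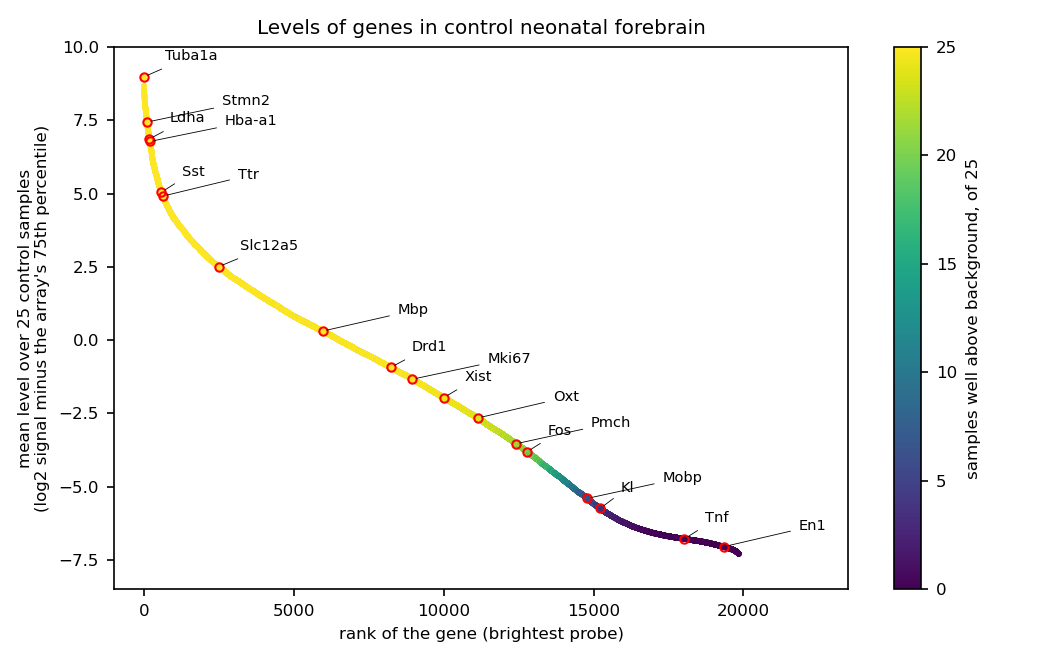
Mean level of each gene over the 25 control pools (log2 signal of the brightest probe minus the 75th percentile of the array) against its rank, coloured by the number of pools in which it was well above background. Red rings mark named genes, from Tuba1a at 8.98 to En1 at -7.05.

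Genes of immature neurons lay highest among the cell type lists. All 16 were well above background in every pool, 11 were among the 1985 highest of all genes, and the median percentile was 96.96. Stmn1, Tubb2b and Stmn2, regulators and subunits of microtubules, were at 7.94 ± 0.49, 7.64 ± 0.52 and 7.44 ± 0.26 (SD, n = 25). Tubb3 was at 6.97 and Gap43, a protein of growth cones, at 6.56 ± 0.29. Dcx, the microtubule protein of migrating neurons, was lower and more variable, at 1.98 ± 0.98, with a lowest pool of -2.0.

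Neuronal identity genes spread widely. Among 15 genes of GABAergic neurons, 12 were well above background in all pools. Cck and Sst, neuropeptides of interneurons, were at 6.02 ± 0.23 and 5.04 ± 0.51, Slc32a1, the vesicular GABA transporter, at 3.77 and Npy at 2.80. Pvalb, which marks fast-spiking interneurons and appears late in development, was at 0.31 ± 0.98. Htr3a was well above background in 17 pools and Reln, of Cajal-Retzius cells, in 21. Among 15 glutamatergic genes the highest was Nrgn (3.00), a calmodulin binder of postsynaptic sites, and the lowest Cux2 (-4.62), of upper cortical layers, which was well above background in 13 pools. Camk2a, a kinase that rises as synapses mature, was at -1.95 ± 0.83. Striatal genes included Tac1 (3.64), Penk (2.96) and Ppp1r1b (2.63 ± 0.29), while the dopamine receptor Drd2 was well above background in 11 pools and Drd1 in all (-0.94 ± 0.41).

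Astrocyte genes lay high as well, with 13 of 14 well above background in all pools and a median percentile of 87.93. Fabp7, the lipid carrier of radial glia and young astrocytes, was at 7.66 ± 0.49, Apoe at 6.82 ± 0.45 and Aldoc, a glycolytic enzyme, at 6.20 ± 0.33. Gfap, which mature and reactive astrocytes express, was at 0.46 ± 0.77 and Slc1a2, the main glutamate transporter of the adult forebrain, at -1.16 ± 0.48. Progenitor and proliferation genes had a median percentile of 59.05. Hes5, a Notch target, was at 4.36 ± 0.20, Pcna at 3.88, the proliferation marker Mki67 at -1.34 ± 0.54 and Eomes, of intermediate progenitors, at -3.49 ± 1.09.

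Of 16 genes of the oligodendrocyte lineage, 12 were well above background in all 25 pools. The precursor genes Olig1 (1.82) and Pdgfra (-0.69) and the genes of myelin proteins Cnp (0.78) and Mbp (0.30 ± 0.94) were well above background in all 25 pools. So were the myelin genes Mag (-1.07) and Mog (-1.40), the second a late one. Mobp, another late myelin gene, was in 7 pools. The 1 probe of Myrf, the factor that starts myelination, was in none. Of 15 microglial genes on the array, 14 were in all pools. Siglech was at 5.16 ± 0.75, Itgam at 3.60 ± 0.89, the receptor Csf1r at 2.93 ± 0.60 and P2ry12, of resting microglia, at -0.71 ± 0.34. The dimmest probes of Siglech, Itgam and Csf1r were at -2.44, -4.92 and -2.82, so these levels are those of their brightest probe only. The same holds for Kdr below, whose dimmest probe was at -1.56. Endothelial and pericyte genes were in all pools for 7 of 14, with Kdr (4.28 ± 1.34) and Cldn5, of tight junctions, (3.16 ± 0.32) highest and Tek in 8 pools.

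**Figure D4:**
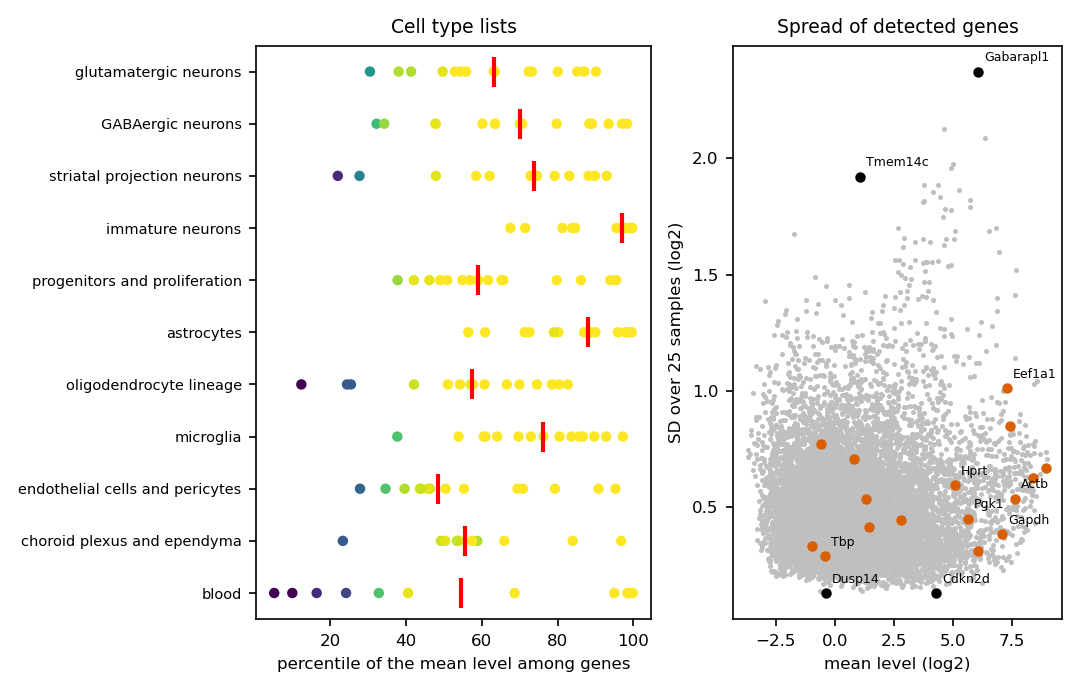
Left, percentile of the mean level of each member of 11 cell type lists among all genes, with the colour giving the number of pools (of 25) well above background and the red tick the list median, highest for immature neurons (96.96). Right, SD over the 25 pools against mean level for the 10283 genes well above background in all, with reference genes in orange and Gabarapl1, Tmem14c, Dusp14 and Cdkn2d in black; the median SD is 0.462.

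Hemoglobin transcripts, which come from blood in the tissue, were bright in all pools. Hba-a2 was at 8.29 ± 0.59 and Hba-a1 at 6.78 ± 0.65, while the embryonic globin genes Hba-x and Hbb-y were well above background in 0 and 5 pools. Hba-a1 lay at 5.93, 5.75, 6.14 and 6.01 in the 3 h pools of Experiment 1, at 6.71 or more in its 15 later pools, and between 5.90 and 6.33 in Experiment 3. Of 8 genes tested, 5 adult globin genes were higher at 6 h and at 12 h than at 3 h and 6, with the erythrocyte anion exchanger gene Slc4a1, at 24 h, and 6 were lower in Experiment 3 than in Experiment 1 at 12 h, where 9.66% of all genes were lower. Hba-a1 differed by 1.23 ± 0.16 at 6 h and Hbb-bs by 1.48 ± 0.43, and Hba-a2 by 1.12, which became -0.31 with normexp and -0.02 after quantile normalization. None of these calls was left with normexp. The summed signal of the list ranged from 8.12 to 10.2 in Experiment 1 and from 8.51 to 8.81 in Experiment 3.

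Genes of the GABA-A receptor and of chloride transport, which set whether GABA excites or inhibits at this age, were detected throughout, 13 of 14 in all pools. The chloride exporter Slc12a5 was at 2.50 ± 0.86 and the importer Slc12a2 at 0.95 ± 0.50. The receptor subunit Gabra3, typical of the immature brain, was at 2.88 ± 0.59 and Gabra2 at -0.25 ± 0.78. Levels of different probes do not rank these transcripts. Slc12a5 was at 3.62, 3.51, 3.54 and 3.28 at 3 h and at 1.44, 2.00, 1.58 and 1.21 at 12 h in Experiment 1. In Experiment 3 it was at 3.65, 3.77 and 3.46 at 3 h and at 2.56, 2.52 and 2.94 at 12 h. The 12 h pools were thus below the 3 h pools in both experiments, with a difference of -1.93 ± 0.34 in Experiment 1 (adjusted p = 0.0001755) and one of -0.95 ± 0.39 that did not pass the test in Experiment 3 (adjusted p = 0.7017). Between experiments, 1 gene of the list was higher in Experiment 3 at 3 h, Gabra4 (1.17), and 1 was lower, and Gabra2 (1.31), Gabra3 (1.1) and Slc12a5 (1.11) were higher at 12 h.

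Energy genes of the suckling brain, which burns ketone bodies and lactate beside glucose, were high and steady. Of 14 genes, 11 were well above background in all pools and 7 among the 1985 highest, with a median percentile of 90.30. Ldha was at 6.86 ± 0.27, Oxct1, the enzyme that activates ketone bodies, at 5.95 ± 0.25, Hmgcs1, of cholesterol synthesis, at 5.82 ± 0.29 and Acat1 at 4.57 ± 0.28. Hypoxia response genes held 9 of 12 in all pools, with Bnip3 at 5.34, Ddit4 at 4.47 ± 0.32, Vegfa at -0.09 ± 0.32 and Pdk1 at -1.49 ± 0.21.

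Inflammation genes lay lower, with a median percentile of 25.71, though above the 14.63 of the list of tissue behind the cut. Of 14 genes, Socs3 and Nos2 were well above background in all pools, and Tnf, Icam1 and Ptgs2 in none. Ccl2 was in 24 pools, Ccl3 and Ccl4 in 19 each and Cxcl1 in 14. Il1b, Il6 and Saa3 were in 1 pool each and Cxcl10 in 4. Fetal growth genes were mixed, with 6 of 14 in all pools. Hmga1 was at 3.49 and Mycn at 0.76, whereas Igf2bp1 was in 1 pool and Hmga2 in 2. The imprinted gene Dlk1, also expressed by hypothalamic neurons, was higher in Experiment 3 by 2.22 ± 0.52 and 2.77 ± 0.52.

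Among 20 clock genes 10 were in all pools. Tef (2.98 ± 0.60), Dbp (1.70 ± 0.27) and Per1 (0.98 ± 0.34) were highest or steady, and Per3 was well above background in none. Of 18 immediate early genes 8 were in all pools. Gadd45g was at 2.78 ± 0.27 and Nr4a1 at 0.62 ± 0.29, while Fos was at -3.81 ± 0.57 in 20 pools and Egr3 in none. Glucocorticoid response genes included Mt1 (4.58), Mt2 (4.06) and Tsc22d3 (2.58 ± 0.35). In the sex-linked list Xist (-1.97 ± 0.76), Ddx3y (-0.48 ± 0.52) and Eif2s3y (-0.21 ± 0.41) were in all 25 pools, which each held both sexes, and none of the list was called in any comparison.

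Levels at 6, 12 and 24 h were then compared with 3 h within Experiment 1. At 6 h 2746 genes were higher and 2767 lower than at 3 h (36.8% of 14985), at 12 h 3240 and 3404 (44.3%) and at 24 h 2857 and 2872 (38.2%). Between 6, 12 and 24 h, which shared slides, limma called no gene in any of the 3 comparisons. Before adjustment 646 (12 h against 6 h), 761 (24 h against 6 h) and 293 (24 h against 12 h) passed 0.05, and the methods' t-test, which has no adjustment, called 231, 210 and 76. An F-test over the 4 times passed 5904 genes (39.4%). In Experiment 3 limma called no gene between 12 h and 3 h, where 1025 passed 0.05 before adjustment and the methods' t-test called 1250. The differences from 3 h thus stand between samples that share no slide, and time and slide cannot be told apart.

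The balance of higher and lower calls against 3 h depended on the scaling. Quantile normalization gave 1816 higher and 3465 lower at 6 h, 2265 and 4101 at 12 h and 1846 and 3825 at 24 h. Centring on the median gave 1935 and 3695, 2078 and 4604, and 1283 and 5295, and normexp gave 2014 and 1962, 5477 and 2329, and 974 and 1303. These settings moved the median difference of all genes by -0.15 to -0.38, and normexp by 0.25 to 0.40, where it lay within 0.03 of 0 in the processed signals.

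**Figure D5:**
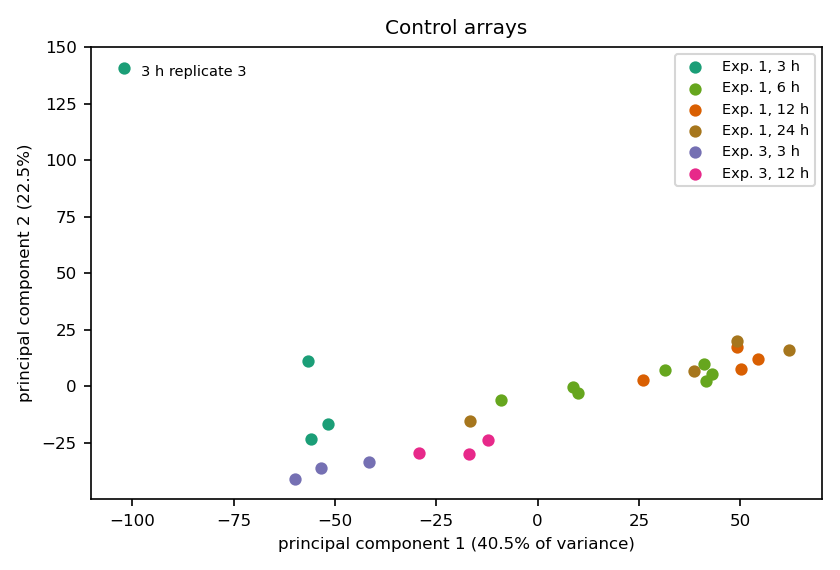
First and second principal component of the levels of 13443 genes in the 25 control pools (40.5% and 22.5% of the variance), coloured by experiment and time. The 3 h pools of both experiments and the 12 h pools of Experiment 3 lie at negative values of the first component. Most later pools of Experiment 1 lie at positive ones, and the 3 h replicate 3 of Experiment 1 stands alone on the second (141).

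Many neuronal and glial genes were lower after 3 h in the processed signals. Of 15 glutamatergic genes 8, 11 and 10 were lower at 6, 12 and 24 h than at 3 h and none higher, against 18.5%, 22.7% and 19.2% of all genes that were lower. Their median difference was -0.82, -1.1 and -0.94. Camk2a differed by -1.92, -2.11 and -1.66 and kept its direction with normexp and quantile normalization. Of the list's calls, 2, 5 and 2 were left with normexp and 1, 3 and 1 changed direction. Mbp, the myelin basic protein gene, was at 1.44, 1.42, 1.94 and 1.14 at 3 h and at -0.82, -0.38, -0.58 and -1.01 at 12 h. The 24 h replicate 3, at 0.88, lay nearer the 3 h pools than the other 24 h pools, at -0.69, -0.45 and -1.25. Its differences of -1.55 ± 0.29, -2.18 ± 0.33 and -1.86 ± 0.33 kept their direction with normexp and quantile normalization. Pdgfra, Sox11, Aqp4, Gabra3 and Cx3cr1 were also lower at all 3 times under both.

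Of 16 genes of immature neurons 5, 5 and 7 were lower at 6, 12 and 24 h and 1, 1 and 0 higher, beside 18.5%, 22.7% and 19.2% of all genes that were lower and 18.3%, 21.6% and 19.1% that were higher. Map1b, which stabilizes axonal microtubules, was at -1.86, -2.63 and -1.98. Their median difference was -0.23, -0.49 and -0.60, and 1, 1 and 0 of the calls changed direction with normexp. Of 16 genes of the oligodendrocyte lineage 5, 7 and 7 were lower and 2, 1 and 3 higher, and of 14 astrocyte genes 6, 7 and 3 were lower and 2, 2 and 2 higher. The shares of astrocyte genes called at 24 h, 3 lower and 2 higher of 14, were near those of all genes. The 5 astrocyte calls at 24 h were Slc1a3 (-0.98), Aqp4 (-1.01), Sparcl1 (-0.86), Apoe (0.68) and Fabp7 (0.87), of which 2 changed direction after quantile normalization, with Fabp7 at -0.18. With normexp 3, 2 and 0 of the astrocyte calls and 0, 2 and 0 of the oligodendrocyte calls changed direction. Among 15 progenitor genes, Nes (-0.65), Sox2 (-0.94), Ccnd1 (-1.17) and Mcm2 (-1.14) were lower at 6 h, none was higher, and with normexp none of the 4 was called.

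At 12 h several of these genes were higher in the controls of Experiment 3 than in those of Experiment 1. Mbp (1.40), Gpr17 (1.54), Olig2 (0.66) and Mag (1.11) were higher and Mog, a late myelin gene, lower (-1.21), and at 3 h Mag (1.46) was higher and Mog (-1.31) lower. With normexp 1 of these 5 oligodendrocyte calls at 12 h changed direction. Of the astrocyte genes 6 were higher at 12 h, of which 1 changed direction with normexp, and none lower, and at 3 h S100b (1.11) and Aldoc (0.70) were higher. Sox2, a progenitor factor, was higher by 1.01 at 12 h.

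GABAergic and striatal genes were split. At 6 h Gad1 (-0.95), Slc32a1 (-0.96) and Dlx5 (-0.76) were lower than at 3 h and Pvalb (2.12) higher, and 2 of the 5 GABAergic calls changed direction with normexp, with Sst at 0.84 and then -0.34. Adora2a (-0.90), Foxp1 (-1.28) and Meis2 (-0.65), of striatal projection neurons, were lower at 6 h. The endothelial growth factor receptor gene Kdr was higher by 2.28, 2.75 and 2.75, whereas Flt1, at -2.21, -2.31 and -2.05, turned to 0.0082 at 12 h with normexp, which changed the direction of 3, 4 and 2 calls of the list. Chemokine and nitric oxide genes of the inflammation list were higher, namely Ccl2 (1.16, 2.04 and 1.62), Cxcl1 (1.5, 1.60 and 1.48) and Nos2 (1.74, 2.38 and 2.05), while Socs3 was lower at 12 h (-0.67) and 24 h (-0.67), and 1 of the 4 calls at each of these times changed direction with normexp. Of 15 glucocorticoid response genes, Fkbp5 (-0.99), Cdkn1a (-0.73) and Pdk4 (-0.78) were lower at 6 h. This share was near the 18.5% of all genes that were lower. With normexp none of these 3 calls was left, and Pdk4 turned to 0.31. Of 14 fetal growth genes 7, 8 and 8 were lower and none higher, beside 18.5%, 22.7% and 19.2% of all genes that were lower, with Igf1 at -1.39, -1.74 and -1.32. With normexp 3, 4 and 3 of these calls were left and 2, 3 and 2 changed direction.

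Other genes were higher after 3 h. Of 15 microglial genes 7, 8 and 9 were higher at 6, 12 and 24 h and 1, Cx3cr1, lower, against 18.3%, 21.6% and 19.1% of all genes that were higher. Tyrobp, a signalling adaptor, differed by 1.16, 1.47 and 1.41 and Itgam by 1.08, 1.25 and 1.43. With normexp the only call of the list that was left at each time was the lower one, Cx3cr1 (-0.81, -0.93 and -0.78), and none of the higher calls was. Csf1r at 6 h changed from 0.77 to -0.08. At 12 h 6 of the list were lower and Cx3cr1 was higher (1.2) in Experiment 3 than in Experiment 1. Of all genes, 9.66% were lower and 11.5% higher in this comparison. With normexp 1 of these 7 calls was left, that of Cx3cr1, and none of the 6 lower ones. Pvalb was higher by 2.12 ± 0.31, 2.33 ± 0.35 and 2.50 ± 0.35, and Npas4, an activity-induced factor, by 1.94, 2.24 and 2.14. Tcf7l2, Avp and Tph2 were higher as well, by 1.39 to 1.77, and all 5 kept their direction with normexp and quantile normalization.

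Genes of single regions moved in both directions. Of the hypothalamic peptides, Avp (1.57, 1.77 and 1.64) and Agrp (1.48, 1.61 and 1.66) were higher at 6, 12 and 24 h than at 3 h within Experiment 1, and Pomc at 6 h (2.92) and 12 h (2.71). Barhl1 (0.97, 1.32 and 1.29) and Tph2 (1.45, 1.48 and 1.63) of the list for caudal tissue were higher at the same times, and En2 at 12 h (0.97) and 24 h (1.05). In the thalamic list Tcf7l2 was higher at 12 h (1.5), Lhx9 (-0.75), Rora (-0.94) and Slc17a6 (-0.62) were lower and Lef1 was at least 2.011-fold lower, and 3 of these 5 calls changed direction with normexp. Of 7 hippocampal genes 3 were well above background in all pools and none was called between experiments. Grp, a peptide of pyramidal and limbic neurons, was higher by 1.51, 1.57 and 1.45 after 3 h, and at 12 h Fibcd1 was at least 1.887-fold lower and Wfs1 differed by -0.62, where 2 of 4 calls of the list changed direction with normexp. Prox1, of dentate granule cells, was at least 1.15, 1.018 and 1.126-fold lower, and turned to 0.95, 1.45 and 0.91 with normexp.

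Metabolic genes were split as well. Of 12 hypoxia response genes, Slc2a1 (-1.67) and Pfkfb3 (-1.61) were lower and Bnip3 (1.04) and Ankrd37 (1.11) higher at 24 h than at 3 h. At 12 h Slc2a1 (1.31) and Pfkfb3 (1.17) were higher in Experiment 3 than in Experiment 1 and Bnip3, at -0.90, turned to 0.073 with normexp. Of 14 fuel genes, Bdh1 (-0.72), Slc2a1 (-1.69) and Cpt1a (-0.93) were lower and Slc16a7 (1.56) and Ldhb (0.79) higher at 6 h, and 1 of the 5 calls changed direction with normexp. Fkbp5 (1.16), Cdkn1a (1.14), Mt1 (0.86) and Mt2 (0.96), of the glucocorticoid response, were higher in Experiment 3 at 12 h.

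Clock and immediate early genes were lower more often than higher after 3 h in the processed signals, but not under all processing. Of 20 clock genes 10, 10 and 7 were lower and 1, 1 and 2 higher at 6, 12 and 24 h, where 18.5%, 22.7% and 19.2% of all genes were lower and 18.3%, 21.6% and 19.1% higher. With normexp 5, 5 and 4 of these calls were left. Cry2 was at -1.67, -2.18 and -1.86. Nr1d1, a repressor of the clock, was at -1.55, -1.71 and -1.27 against 3 h and turned to 0.49, 0.80 and 0.34 with normexp, and Ciart, at -1.41, -1.69 and -1.69, to 0.81, 1.28 and 0.77. Of 18 immediate early genes 7, 8 and 7 were lower and 1, 2 and 1 higher, and with normexp 2, 4 and 3 of these calls were left. Fos, at -0.70, -0.93 and -0.73, turned to 0.83, 1.22 and 0.76. In Experiment 3 Fos was at -2.91, -2.65 and -2.94 at 3 h and at -4.29, -4.16 and -4.18 at 12 h. These groups did not overlap, and the difference of -1.38 ± 0.29 did not pass the test (adjusted p = 0.1989).

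The largest differences from 3 h rested on few arrays. Tfpt, a subunit of a chromatin remodeller, differed by 4.58 ± 0.97 at 6 h, and Gabarapl1, an autophagy protein, by 4.49 ± 1.09. Gabarapl1 was at 6.52, 6.15, -2.30 and -1.27 in the 3 h pools and between 6.55 and 6.98 in all later pools of Experiment 1. The low values were those of 3 h replicates 3 and 4, which shared slide 6. Without replicate 3 the differences were 3.20 for Tfpt and 2.97 for Gabarapl1. Yipf1, Atp5c1, Atg16l1, Tmub2 and Mtpn, which completed the 5 largest at 6, 12 or 24 h, differed by 4.13 to 4.64.

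The spread of a gene over the 25 pools was moderate. Its SD had a median of 0.462 over 10283 genes, lay under 0.5 for 57.1% and over 1 for 3.71%, and the 5th and 95th percentiles were 0.243 and 0.936. Within the 6 groups the median was 0.341. It was 0.117 and 0.168 in the 3 h and 12 h pools of Experiment 3 and 0.257 to 0.375 in the groups of Experiment 1.

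The steadiest genes were Dusp14 (SD 0.130), a phosphatase, Cdkn2d (0.131), a cell cycle inhibitor of postmitotic neurons, Senp2 (0.140), Pigv (0.141) and Slc9a8 (0.148). The most variable were Gabarapl1 (2.37), Micos13 (2.13), Atp5c1 (2.09), Acot13 (1.97), Ube2v2 (1.96), Tmem14c (1.92), Armc1 (1.89), Guk1 (1.88), Sem1 (1.87) and Churc1 (1.86). For Micos13, of the inner mitochondrial membrane, and Acot13, a thioesterase, a single pool decided the value. The 3 h replicate 3 of Experiment 3 was at -4.77 and -3.74, where the other 2 pools of that group were between 3.47 and 4.56. Tmem14c, by contrast, lay between -2.63 and -0.40 in all 6 pools of Experiment 3 and between -0.94 and 3.65 in Experiment 1.

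Reference genes were bright, with a median percentile of 97.49 for 16 genes, but not all were steady. Gapdh was at 7.05 ± 0.38, Tbp at -0.43 ± 0.29 and Actb at 7.61 ± 0.54 (SD, n = 25), and none of the 3 was called in any comparison with 3 h. Eef1a1 (7.28 ± 1.01) and Rpl13a (7.42 ± 0.85) were higher by 2.17 and 1.73 at 6 h than at 3 h. At 6, 12 and 24 h 8, 9 and 8 reference genes were higher and 2, 3 and 2 lower, beside 18.3%, 21.6% and 19.1% of all genes that were higher and 18.5%, 22.7% and 19.2% that were lower. With normexp 3, 4 and 3 of these calls were left and 4, 2 and 0 changed direction. Ppia turned from 1.33 to -0.06 and Hprt from 0.98 to -0.27 at 6 h. The median shift of the list was 0.77, 0.79 and 0.71 in the processed signals, 0.12, 0.11 and 0.04 after quantile normalization, and -0.03, 0.11 and 0.24 with normexp.

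The choice of probe mattered for many genes. Of 5366 genes with at least 2 probes, the brightest and the dimmest differed by a median of 2.10 on the log2 scale, and by over 2 for 51.73%. For 190 genes 1 probe was well above background in all 25 pools and another in none. Among genes named above, the dimmest probes of Gabra3, Slc12a5, Slc32a1, Bnip3 and Hmga1 were at -4.77, -2.71, -2.11, -1.73 and -4.13. Counting any probe of a gene in place of the brightest, 10409 genes were well above background in all pools.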

How the data were processed

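RNA pools of control forebrain were measured on 2-colour Agilent 4x44K whole mouse genome arrays, with the control in Cy3 by the labels. Ratios of the 6 h arrays correlated between -0.54 and 0.93 with each other, below 0 for replicates 3 and 7 against the other 5, and the direction was kept as the labels and methods state it. Feature Extraction 10.5.1.1, run by the authors, subtracted background, detrended each array in space and balanced the dyes (linear and LOWESS), which gave the processed intensities deposited. The Cy3 value of an array therefore also depends on its paired Cy5 sample. The log10 ratios of both channels in a deposited matrix hold no level of a single channel and were not used here. The deposited median intensities of spot and local background were used for the alternative with normexp (offset 50).

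Flagged outlier spots were left out, and spots of a probe were averaged. Of 39429 probes, 27427 (69.6%) matched 1 RefSeq symbol, and 930 symbols with Rik were left out. From each log2 value the 75th percentile of its array was subtracted. A gene was tested when it was well above background on at least 0.667 of the arrays of a group, which left 14985 genes. One limma fit held 6 group means over 25 samples, with Benjamini-Hochberg adjustment over all genes tested, and a call needed an adjusted p under 0.05 and a fold of 1.5 (log2 0.585). The code was tested on simulated data. Analyses used R 4.3.3, limma 3.58.1, Python 3.11.15, pandas 2.3.3 and numpy 2.4.6.

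The genes named are the lead genes of 25 lists, the 10 brightest, the 10 most and 5 least variable, and the 5 largest differences of each comparison among genes called whose groups do not overlap. Where 5 genes or fewer of a list were called, they are named, and further genes were chosen after their values were seen. The members and lists were chosen with earlier results of these data known. Alternatives were slide as a random block, the replicate number as a block, normexp, quantile normalization, centring on the median, genes detected on all arrays only, the methods' t-test, the samples of Experiment 1 alone and each sample left out in turn. Comparisons between 6, 12 and 24 h, and fits without the pools low in choroid plexus genes or with the near-identical 6 h arrays averaged, were added after seeing the data. The number of arrays limits the precision of each value. Values of some genes the rule names are not reported here.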

Additional observations from a re-analysis of the deposited data

Results flagged for a closer look

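In groups of 4 to 7 pools, 116 sets of values were examined for a pool that lay apart from its group, and 11 had one. Apart from the array correlations, these sets were levels of 28 genes, some of them named for their spread or after their values were seen. Genes of a pool also vary together, so no chance rate can be set beside this count. The mean correlation of the 3 h replicate 3 of Experiment 1 with the other arrays (0.835) lay apart, as did its Otx2 level (-3.17). The 12 h replicate 1 of Experiment 1 lay apart in Ttr (-1.09), Folr1 (-2.28) and Clic6 (-4.47). The 24 h replicate 3 lay apart in Clic6 (-1.42), Tph2 (-3.81) and Micos13 (4.56). Hcrt was apart in 3 h replicate 2 (-2.82), Foxb1 in 12 h replicate 3 (-5.97), where no pool of the group was well above background, and Hbb-bs in 3 h replicate 4 (3.99).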

How the results depend on the processing

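The number of calls moved with the background correction. With normexp in place of the processed signals, calls rose from 6644 to 7806 at 12 h against 3 h and fell to 2277 (24 h against 3 h), 2901 (over the 4 times of Experiment 1), 152 (Experiment 3 against 1 at 3 h) and 876 (at 12 h). Of 212 calls of the lead genes of the lists under normexp, 86 were called again, 82 kept only their direction and 44 changed direction, and after quantile normalization 180, 28 and 4. Of 130 mean levels of these genes, 80 moved by more than their SD with normexp and none after quantile normalization. The cause was not tested.

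The changed directions listed here are those of the lead genes, and calls of other list members also changed direction. Under normexp they were, at 6, 12 and 24 h against 3 h, Pdgfrb (0.29, 0.61 and 0.24), Prox1 (0.95, 1.45 and 0.91), Nr1d1 (0.49, 0.80 and 0.34), Ciart (0.81, 1.28 and 0.77), Fos (0.83, 1.22 and 0.76) and Arc (0.23, 0.27 and 0.12). At 6 h and 12 h they were Sst (-0.34 and -0.069), Slc1a2 (0.058 and 0.18) and Pdk4 (0.31 and 0.65), and at 12 h and 24 h Top2a (0.71 and 0.28) and Igf2bp3 (1.27 and 0.81). At 6 h only they were Fabp7 (-0.33), Csf1r (-0.082), Hba-a2 (-0.31), Bnip3 (-0.30), Adm (0.51), Hprt (-0.27) and Ppia (-0.055), and at 12 h only Flt1 (0.0082) and Kl (1.57). Between experiments at 12 h they were Sst (0.17), Slc1a2 (-0.14), Flt1 (-0.47), Hba-a2 (0.12), Gbx2 (-0.76), Arc (-0.27) and Bnip3 (0.073). After quantile normalization Fabp7 (-0.18, -0.075 and -0.18) and Hba-a2 at 6 h (-0.020) changed direction.

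Other settings moved counts of calls. For 12 h against 3 h in Experiment 3 (0) they gave 1 with slide as a random block, 2 with the replicate number as a block, 7 after quantile normalization, 1 without the pools low in choroid plexus genes and 1250 by the methods' t-test without adjustment. For Experiment 3 against 1 at 3 h (713) they gave 358 with the slide block, 475 with centring on the median and 2434 by the unadjusted t-test. For the difference between experiments of 12 h against 3 h (0) they gave 14 after quantile normalization, 5 over genes well above background on all arrays and 1 without the low pools. For 24 h against 6 h the slide gave 2 calls as a random block and 1, Sval1, as a fixed block, and the unadjusted t-test gave 210, against 231 for 12 h against 6 h and 76 for 24 h against 12 h. The adjusted t-test gave 2289 for 24 h against 3 h.

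With single samples left out, the calls against 3 h ranged over 4949 to 5862 (6 h), 5810 to 6799 (12 h) and 4150 to 6664 (24 h), and those over the 4 times over 4778 to 6619. In Experiment 3 they ranged over 0 to 4, between experiments over 156 to 945 (3 h) and 1360 to 3716 (12 h), and for their difference over 0 to 242 (242 without the 24 h replicate 3 and 152 without the 6 h replicate 4 of Experiment 1). For 24 h against 6 h they ranged over 0 to 5, and 12 h against 6 h and 24 h against 12 h stayed at 0. Genes well above background on all arrays ranged from 10283 to 10945 and the median SD from 0.4355 to 0.4671.

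The replicate numbers do not pair the samples, since same-numbered samples correlated in their deviations between -0.521 and 0.73 with a median of 0.0291, and 7 of 25 correlated best with their own number. With the replicate block 4293, 6730 and 5778 genes were called at 6, 12 and 24 h. No test within a slide was possible between experiments, and slide 8 alone held both times of Experiment 3, with 1 array each. A gene well above background on no array of a group has only a bound there.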

Other observations

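Further genes of midbrain and hypothalamus, chosen after their values were seen, were set beside the hypothalamic peptides. Slc6a3, the dopamine transporter, lay between -2.74 and -1.14 in the 19 control pools of Experiment 1 and between -0.46 and 0.84 in the 6 of Experiment 3, with differences of 2.16 ± 0.28 at 3 h and 2.30 ± 0.28 at 12 h. Slc18a2, the vesicular monoamine transporter, differed by 1.26 and 1.16 and also showed no overlap. Lmx1a, a factor of midbrain dopamine and subthalamic neurons, differed by 2.45 and 2.82 and was well above background in 8 of 19 pools (1 of the 4 at 12 h) and 6 of 6. Th, tyrosine hydroxylase, differed by 1.11 ± 0.35 (adjusted p = 0.06835) and 0.80 ± 0.35 (adjusted p = 0.1055) and was not called.

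Nkx2-1, a factor of ventral hypothalamus and of basal forebrain, differed by 1.70 ± 0.43 at 3 h. It was well above background in 6 of 6 pools of Experiment 3 and 4 of 19 of Experiment 1, with none at 12 h, where no size is given. Irx3, a factor of caudal diencephalon and midbrain, was well above background in 1 of 19 and 5 of 6 pools. Irx1 differed by 1.94 ± 0.61 at 3 h (adjusted p = 0.06415) and by 3.44 ± 0.61 at 12 h (adjusted p = 0.001033), where 2 of the 4 pools of Experiment 1 were well above background. Lhx6, a factor of interneurons from the medial ganglionic eminence, was lower in Experiment 3 at 12 h (difference -2.16 ± 0.37), with -0.78 ± 0.37 at 3 h (adjusted p = 0.2244). These are values of 2 experiments made from separate litters on separate slides, and experiment, litter and slide cannot be told apart.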
